A study of Mus musculus with 9 samples.

Results

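The genes examined here were those with low values in all libraries of mice that carried both a leukaemia fusion allele and a floxed Chd7 gene, and with higher values in each library of the other groups. A gene was taken when the lowest of its 6 values in wild-type and fusion-only libraries was at least 50 and the highest of its 3 values in the double mutant was at most 0.6 times that lowest value. Of 43629 genes in the table, 11354 had a lowest wild-type or fusion-only value of at least 50, and 37 of these met the whole rule (0.326%). The members were thus selected on their normalised values in all 9 libraries, and the depth of the drop in the double mutant is a description with no test. No group with Chd7 loss alone was measured here, so "low only in the double mutant" refers to the 3 groups in the data.

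The libraries were RNA-seq profiles of bone marrow cells enriched for c-KIT (CD117) with a selection kit, the receptor for stem cell factor that marks blood stem cells and progenitors. Each mouse had been given pIpC, an RNA mimic of viral infection that triggers interferon and through it Mx1-Cre, and all mice were labelled C57BL/6. The 3 libraries called WT came from wild-type mice. The 3 called KI carried Mx1-Cre and Cbfb+/56M, an inducible allele of the CBFB-MYH11 fusion gene of human acute myeloid leukaemia, and the 3 called KI_Chd7del carried these 2 alleles together with Chd7f/f, floxed copies of a chromatin remodelling ATPase gene. KI and KI_Chd7del thus share Mx1-Cre and the fusion allele, while the WT label names no Cre. Mx1-Cre acts in many interferon-responsive cell types, not only in blood cells. The labels give no ages and do not say that each library is a separate mouse. The p-values therefore measure only the spread among these libraries.

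Values are read numbers that the authors scaled by 1 factor per library and rounded, called normalised values here. In units of 1 M, their totals per library were 43.2 to 46.2 (WT), 37.7 to 39.0 (KI) and 37.5 to 38.1 (KI_Chd7del). Kit, which encodes c-KIT, the receptor used for selection, stood at 7354 to 7797 in WT, at 3226 to 3868 in KI and at 6131 to 8508 in KI_Chd7del. Its difference from KI in the double mutant was 1.07 on the log2 scale (SE 0.11, adjusted p = 0.000212 in limma). Myh11, which supplies the tail of the fusion, stood at 5 to 9 in WT and at 164 to 219 in the other 6 libraries. Chd7 stood at 3471, 3745 and 3982 in WT, at 1979, 2934 and 2009 in KI and at 1862, 1794 and 1921 in KI_Chd7del, and the last 2 groups did not differ past the threshold (log2 difference -0.29, SE 0.14, adjusted p = 0.121 in limma). A value summed over the whole gene gives little check of a floxed exon.

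The 37 genes held 17 immunoglobulin genes, 19 other protein-coding genes and 1 antisense RNA. Of the immunoglobulin genes, 12 were heavy chain variable genes, 4 were kappa variable genes and 1 was Ighg2b, a heavy chain constant gene. The protein-coding members included the red cell membrane genes Slc4a1 and Epb42, the apolipoprotein genes Apoe and Apoc2, the clotting factor gene F10, the platelet receptor gene Clec1b and the transporter genes Slc6a20a and Slc30a10. Mean values in KI_Chd7del were 0.857% to 51.3% of the WT mean (median over the members 20.98%) and 3.49% to 48.5% of the KI mean (median 18.8%). The lowest share of the WT mean, that of Igkv4-70, rests on 1 high WT library (2852, against 168 and 247 in the others).

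As background, an antibody chain is built in B lineage cells by joining a variable (V) gene to short joining segments, so that each B cell clone transcribes few V genes strongly, and a plasma cell carries large amounts of such RNA. Red cell precursors in the marrow assemble a membrane skeleton anchored to the anion exchanger band 3, the product of Slc4a1, with the help of protein 4.2, the product of Epb42. Macrophages of the marrow make apolipoprotein E and complement C1q. CHD7 slides nucleosomes at enhancers and promoters, and CBFB-MYH11 alters the core binding factor that directs blood cell differentiation.

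The 3 smallest ratios of the whole set belonged to variable genes, whose sequences are near copies of each other, which bears on how reads can be assigned to them. The last 90 bases of the coding exon are shown for 5 heavy chain members of the Ighv1 family, from the GRCm38 reference and on the minus strand. For the 4 kappa members, all of the Igkv4 family, 90 bases close to that end are shown. Each was placed at its best match to Igkv4-59, and the last few bases of each gene are left out. Capitals mark bases that differ from the commonest base at that place among the family's members here.
Ighv1-76 (chr12:115847881-115847970): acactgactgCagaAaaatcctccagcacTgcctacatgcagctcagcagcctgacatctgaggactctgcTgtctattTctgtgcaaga
Ighv1-19 (chr12:114708648-114708737): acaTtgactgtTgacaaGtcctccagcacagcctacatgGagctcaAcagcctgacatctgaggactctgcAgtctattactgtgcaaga
Ighv1-55 (chr12:115208095-115208184): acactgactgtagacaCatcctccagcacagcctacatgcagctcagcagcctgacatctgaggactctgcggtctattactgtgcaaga
Ighv1-72 (chr12:115757984-115758073): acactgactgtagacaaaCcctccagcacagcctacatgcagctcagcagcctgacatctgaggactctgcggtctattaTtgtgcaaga
Ighv1-64 (chr12:115507545-115507634): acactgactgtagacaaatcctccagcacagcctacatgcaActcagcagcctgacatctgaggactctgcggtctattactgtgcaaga
Igkv4-70 (chr6:69267894-69267983): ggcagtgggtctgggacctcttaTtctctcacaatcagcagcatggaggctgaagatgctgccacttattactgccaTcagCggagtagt
Igkv4-59 (chr6:69438228-69438317): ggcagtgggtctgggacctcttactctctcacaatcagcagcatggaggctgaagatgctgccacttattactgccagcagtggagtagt
Igkv4-68 (chr6:69304844-69304933): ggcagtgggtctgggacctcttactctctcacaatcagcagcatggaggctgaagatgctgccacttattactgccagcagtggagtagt
Igkv4-74 (chr6:69184836-69184925): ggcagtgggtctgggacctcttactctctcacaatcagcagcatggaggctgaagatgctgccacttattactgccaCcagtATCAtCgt
Igkv4-59 and Igkv4-68 have the same 90 bases here. Over 250 bases, the 10 Ighv1 members were 92.8% to 99.2% identical to their closest family gene in the table, and 9 of the 10 reached 95%. The 4 Igkv4 members reached 92.4% to 96.4%, with 3 of the 4 at 95% or more. These 250 bases were compared position by position from the end with no shift, so genes with ends of unlike length could score too low. Values of single V genes are therefore uncertain, because the counting can split reads between copies. All mice were labelled C57BL/6, yet a few V segments, such as Ighv3-2 (88, 888 and 142), were detected in KI_Chd7del and stood at 0 or 1 in each WT and KI library. Whether the genetic background at the heavy chain and kappa loci differed between the groups was not tested, and the V gene values hold with that limit.

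Igkv4-70, a kappa V gene on chromosome 6 (69267888 to 69268443), had the smallest ratio of all members. Its values were 168, 247 and 2852 in the WT libraries, 529, 143 and 131 in the KI libraries and 6, 10 and 12 in the KI_Chd7del libraries. WT library 3 stood far above the others, and all 3 KI_Chd7del libraries stood at 12 or less. Ighv1-76 (chromosome 12, 115847881 to 115848331) was at 152, 1902 and 210 in WT, at 214, 153 and 134 in KI and at 14, 3 and 9 in KI_Chd7del. Here WT library 2 was the high one, and the WT and KI ranges overlapped. Ighv1-19 (chromosome 12, 114708648 to 114709135) had 305, 149 and 308 in the WT libraries, 252, 211 and 167 in the KI libraries and 17, 17 and 18 in the KI_Chd7del libraries. Its WT and KI libraries covered the same range, and the KI_Chd7del libraries were almost equal at a mean of 6.82% of WT.

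Among the other Ighv1 genes, Ighv1-55 had 755, 312 and 834 in the WT libraries, 404, 279 and 95 in the KI libraries and 27, 33 and 37 in the KI_Chd7del libraries. Ighv1-72 had 246, 383 and 210, then 312, 99 and 85, then 7, 2 and 35. Ighv1-64 had 298, 449 and 236, then 142, 241 and 178, then 49, 61 and 24. In each of these 3 genes the WT and KI libraries overlapped, and KI_Chd7del stayed apart, as the rule requires. Ighv1-80 and Ighv1-18 reached their highest values in KI library 1 (1259 and 1215), although other KI libraries were as low as 85 and 70. Their KI_Chd7del libraries lay at 14 to 39 and at 10 to 36. Ighv1-81 was at 6, 4 and 61 in KI_Chd7del and Ighv1-22 at 9, 10 and 48, so that library 3 was the highest of the 3 in both. The last Ighv1 member, Ighv1-7, was at 32, 38 and 27 in KI_Chd7del against 68 to 418 in the other libraries.

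Only 2 heavy chain V members came from outside the Ighv1 family. Ighv10-3 was at 291, 194 and 183 in WT, at 70, 117 and 163 in KI and at 8, 26 and 25 in KI_Chd7del. Ighv5-16 was at 285, 489 and 230 in WT, at 117, 91 and 105 in KI and at 15, 0 and 46 in KI_Chd7del. In both genes all WT libraries lay above all KI libraries, yet neither difference passed the test (adjusted p = 0.0950 and 0.249 in limma). Of the remaining kappa members, Igkv4-59 had 100, 100 and 103 in KI_Chd7del against 246 to 785 elsewhere, and Igkv4-74 had 5, 27 and 8 against 61 to 385. Igkv4-68 had 19, 51 and 59 in KI_Chd7del, and its other libraries ran from 102 in KI library 3 to 1640 in WT library 3.

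Membership was uneven over the V families. Of 15 Ighv1 genes with a lowest WT or KI value of at least 50, 10 were members, and 13 of the 15 had every KI_Chd7del library below every other library, as had 9.28% of all 11354 such genes. Members are separated by the rule, so of the 13 only 3 were not fixed by it. Of 18 such genes in other heavy chain families, 2 were members and 8 were fully separated. In the kappa locus, 4 of 8 Igkv4 genes and 0 of 32 genes of other families were members, with 7 and 6 fully separated. Ighv1-9, Ighv1-53, Ighv1-69 and Igkv4-55, for example, were separated but missed the ratio (0.722, 0.729, 0.891 and 0.620). Ighv1-15 (553 in KI_Chd7del library 3) and Ighv1-26 (635 there) were the 2 Ighv1 genes in which a KI_Chd7del library entered the range of the others.

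Outside the members, 74 heavy chain V genes could be tested in KI_Chd7del against KI, and 20 fell (27.0%) and 1 rose, where 22.9% of all 15997 genes tested fell. Against WT, 36 of the 74 fell (48.6%), beside 24.3% of all genes. The non-member Ighv1 genes fell in 12 of 32 cases against KI and in 18 of 32 against WT, with median log2 differences of -2.02 and -2.88. Of the 74 genes, 12 had no KI_Chd7del library at 10 or more and passed the filter through WT and KI, 9 of them among the 32 Ighv1 genes. Another 1 of the 74 had no WT or KI library at 10 or more. The filter set the direction of these genes, so that the counts and medians are descriptions. Median differences over all genes tested were -0.01 and 0.02. Non-member kappa genes fell in 11 of 75 cases and rose in 2 against KI (14.7% fell) and fell in 38 of 75 against WT (50.7%). Of these 75, 3 had no KI_Chd7del library at 10 or more, so the same limit holds. The members' share of the summed heavy chain V values was 16.5%, 22.4% and 10.7% in the WT libraries, 18.4%, 16.9% and 18.7% in those of KI and 5.61%, 3.07% and 5.55% in those of KI_Chd7del. That fall in share follows from the choice of members. The sums themselves were 20488, 21385 and 44575, then 23462, 14705 and 8516, then 4029, 7108 and 7297, so that all KI_Chd7del libraries lay below all others. Without the members KI library 3 stood at 6923 and KI_Chd7del libraries 2 and 3 at 6890 and 6892, nearly equal. For the kappa genes the sums overlapped, at 11982 in KI library 3 and 17665 in KI_Chd7del library 2.

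**Figure D1:**
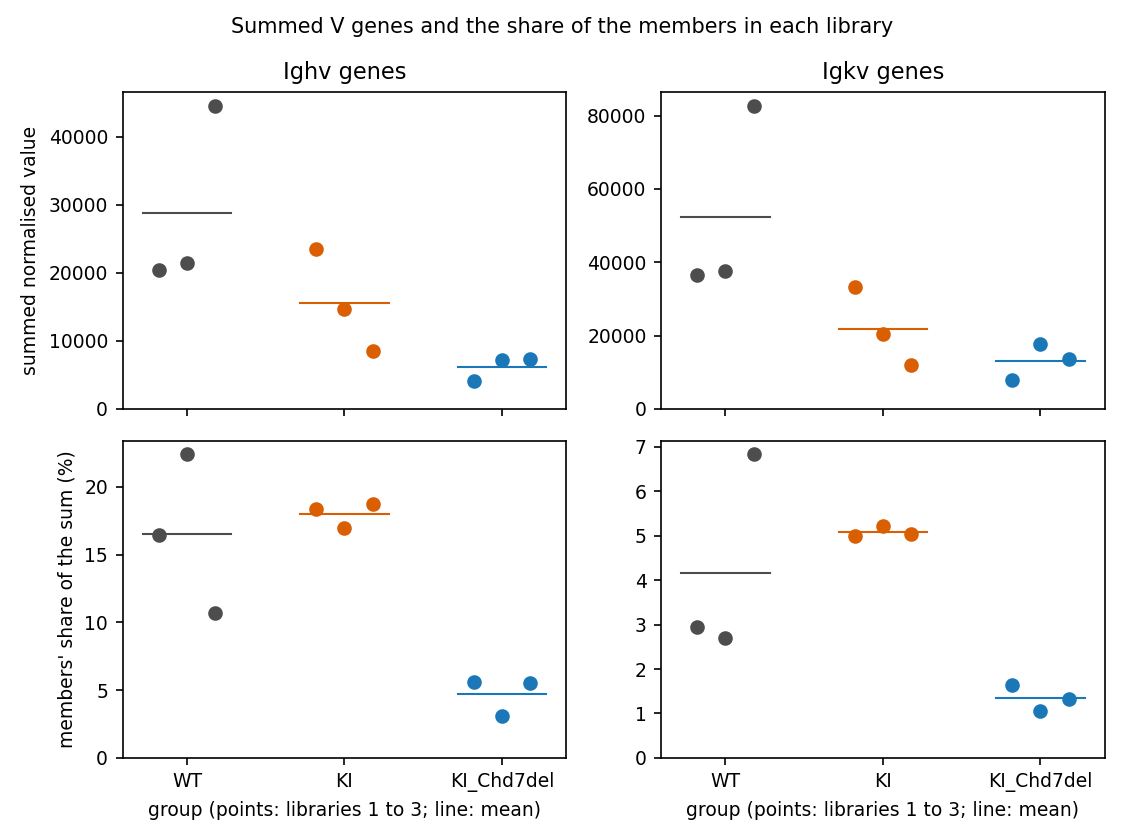
Summed normalised values of heavy chain (Ighv) and kappa (Igkv) V genes (upper panels) and the members' share of that sum in percent (lower panels), with 1 point per library and a line at the group mean. The members' share of Ighv was 3.07% to 5.61% in KI_Chd7del and 10.7% to 22.4% in WT, while the Igkv sums of KI and KI_Chd7del overlapped.

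Ighg2b, the constant gene of the IgG2b heavy chain (chromosome 12, 113302965 to 113307933), was the member closest to the limit of the rule. Its values were 5355, 4217 and 7062 in the WT libraries, 1918, 2346 and 2027 in the KI libraries and 1085, 547 and 1135 in the KI_Chd7del libraries. The 3 groups stood in 3 separate steps. Of the 7 heavy chain constant genes with a lowest WT or KI value of at least 50, 4 had every KI_Chd7del library below every other one (9.28% of all such genes), 1 of them, Ighg2b, by the rule. Ighm was not among them: this gene, of the first antibody class made, was at 104351, 63959 and 32196 in KI and at 25451, 55458 and 47359 in KI_Chd7del. Igkc, the kappa constant gene, was at 53774, 30186 and 17849 in KI and at 10556, 25333 and 19822 in KI_Chd7del. Neither difference passed the test against KI (adjusted p = 0.487 and 0.211 in limma). Beside Ighg2b, the separated genes were Igha, Ighg3 and Ighg1, with ratios of 0.847, 0.838 and 0.618.

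Markers of antibody-secreting and B lineage cells were set beside these genes. Jchain, the joining chain of secreted IgM and IgA, was at 17288, 17074 and 38219 in WT, at 12355, 8020 and 4620 in KI and at 2918, 6764 and 4972 in KI_Chd7del. It was highest in WT library 3, as were 11 of the 17 immunoglobulin members among WT libraries, and lowest among KI in library 3, as were 9 of the 17. Its difference between KI_Chd7del and KI did not pass the test (log2 difference -0.74, SE 0.44, adjusted p = 0.210 in limma). Sdc1, the gene of the plasma cell surface protein CD138, was at 404, 360 and 340 in KI and at 557, 784 and 564 in KI_Chd7del (log2 difference 0.77, SE 0.20, adjusted p = 0.0147 in limma). Mzb1, a secretory gene of B and plasma cells, was at 471, 540 and 380 in KI and at 570, 598 and 1024 in KI_Chd7del (adjusted p = 0.0603 in limma). Jchain and Sdc1 thus had differences of opposite sign. Igll1, a surrogate light chain gene of pro-B and pre-B cells, was at 523, 948 and 698 in KI and at 1436, 1296 and 2371 in KI_Chd7del (log2 difference 1.22, SE 0.26, adjusted p = 0.00615 in limma). Over the list of 22 B and plasma cell genes, 10 rose and 4 fell against KI (17.5% of all genes rose and 22.9% fell), and 12 rose and 6 fell against WT (24% and 24.3% of all genes). The list's sum was 152494 to 457175 in WT libraries, 84885 to 196606 in KI libraries and 65650 to 112170 in KI_Chd7del libraries. The part of these cells in the immunoglobulin results was not tested. In bulk RNA, fewer cells of a type and less RNA per cell cannot be told apart.

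**Figure D2:**
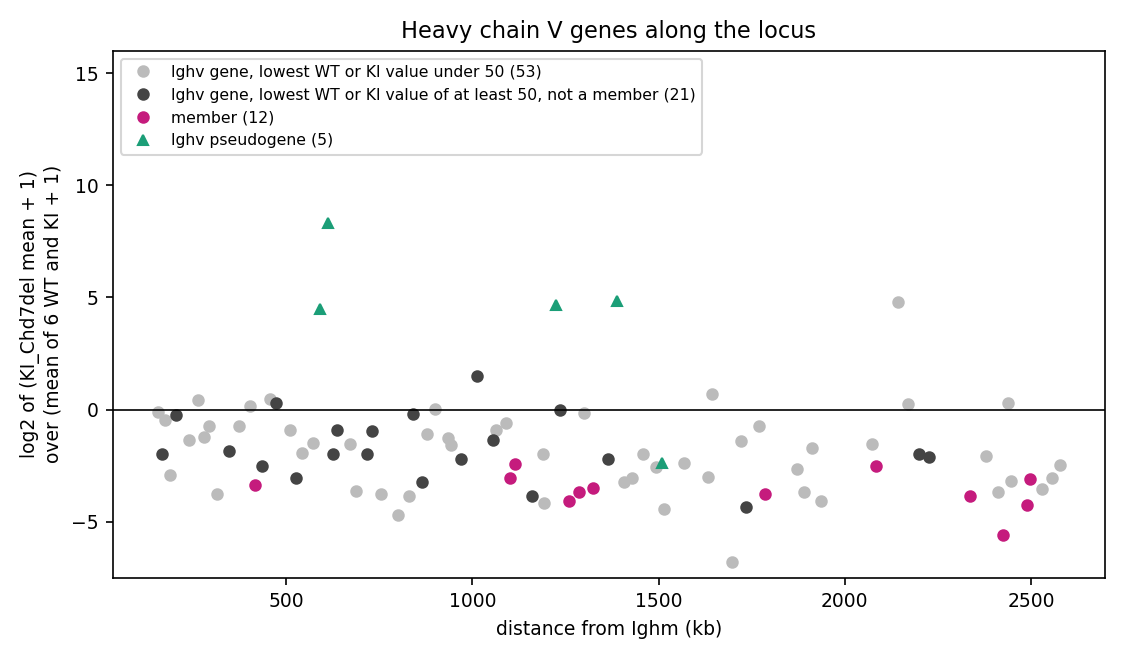
Log2 ratio of the KI_Chd7del mean to the mean of the 6 WT and KI libraries (each plus 1) for heavy chain V genes, against distance from Ighm in kb. The 12 members, from 416 to 2498 kb, lie among other V genes with ratios below 0. The 4 pseudogenes high above 0 passed the filter (10 or more in at least 3 libraries) through KI_Chd7del alone, so their place is set by the filter.

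The 12 heavy chain V members were spread over the locus, from 416 to 2498 kb from Ighm, and with Ighg2b made chromosome 12 the source of 35.1% of the members against 3.72% of the genes with a lowest WT or KI value of at least 50. Chromosome 6, with the kappa locus, gave 18.9% against 5.20%. The 20 other members came from 10 chromosomes. None lay on chromosome 4, where Chd7 is, and 0 of the 39 such genes within 10 Mb of Chd7 were members. Among the 20, only Apoc2 with Apoe (18 kb apart) and Pirb with Gm15448 (96 kb apart) were within 100 kb of each other.

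Of the red cell genes, Slc4a1 (chromosome 11, 102348824 to 102366203), which encodes band 3, was at 5040, 3789 and 6386 in WT, at 6593, 4880 and 4548 in KI and at 1509, 901 and 960 in KI_Chd7del. WT and KI covered the same range, and all 3 double mutant libraries were far below, at 22.1% of the WT mean. Epb42 (chromosome 2, 121017891 to 121037072), which encodes protein 4.2, was at 1148, 1086 and 1108 in WT, at 886, 809 and 784 in KI and at 410, 390 and 403 in KI_Chd7del. For Epb42 the groups stood in steps, with KI between the others and a spread within groups of at most 53.2 (SD, n = 3).

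Other red cell genes moved with them. Of the 21 erythroid list genes that were not members, 16 fell (76.2%) and 2 rose in KI_Chd7del against KI, and 13 fell (61.9%) and 1 rose against WT, where 22.9% and 24.3% of all genes fell. Rhd, a Rhesus membrane protein gene, missed the rule narrowly, with 4033, 3641 and 3613 in the WT libraries, 2398, 2225 and 2276 in the KI libraries and 1344, 1332 and 1369 in the KI_Chd7del libraries. Globin genes had another order: Hbb-bs was at 5148, 3456 and 6179 in WT, at 40283, 26745 and 43283 in KI and at 7375, 4479 and 1481 in KI_Chd7del, so that the double mutant overlapped WT. Klf1, which encodes a red cell transcription factor, did not pass the test against KI (log2 difference -0.32, SE 0.14, adjusted p = 0.103 in limma). The summed erythroid list was 159501 to 178649 in WT libraries, 186848 to 244720 in KI libraries and 87597 to 118515 in KI_Chd7del libraries, and no gene of it was at 0 in all libraries. The part of red cell precursor numbers in the values of Slc4a1 and Epb42 was not tested.

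The start regions of the members were searched for short motifs on both strands, in RefSeq windows of 300 bases (GRCm38.p6), which 14 of the 20 members outside the immunoglobulin genes had. Slc4a1 was among those without a window and was not searched. The GATA motif AGATAA, bound by GATA factors in red cell and megakaryocyte precursors, was in 2 of the 14 (14.3%), in Epb42 and Clec1b, and in 5.95% of 7902 windows of genes with a lowest WT or KI value of at least 50. For Epb42 the match begins 31 bases before the start of the annotated gene and 226 bases before the RefSeq start site that sets the window. It reads as the reverse complement, capitalised in the 55 bases just before that annotated start on the minus strand.
Epb42 (chr2:121037073-121037127): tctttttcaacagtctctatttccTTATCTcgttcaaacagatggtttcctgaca
The RUNX motif TGTGGT was in 14.3% of member windows and 12.5% of all such windows, and CCAAT in 35.7% and 39.9%. The GC-rich motif GGGCGG of KLF and SP factors was in 28.6% against 66.6%, and the ETS motif CCGGAAG in 0 of 14 against 20.9%. AP-1 sites (TGANTCA) and the E-box CAGCTG were each in 1 of 14 windows (7.14%), against 4.33% and 13.7%, and CACGTG and the NF-Y motif CCAATCA in 0 of 14, against 10.8% and 11.2%. CCAATCA contains CCAAT, so those 2 counts overlap. With 14 windows these shares are descriptions only.

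Apoe (chromosome 7, 19696109 to 19699188), the main lipid-carrying protein of macrophages, was at 4932, 7415 and 7006 in WT, at 19732, 8527 and 12809 in KI and at 1969, 1090 and 1153 in KI_Chd7del. Each KI library lay above each WT library, and each double mutant library lay below both groups. Its neighbour Apoc2, whose product activates lipoprotein lipase, was at 104, 225 and 215 in WT, at 400, 335 and 303 in KI and at 51, 18 and 35 in KI_Chd7del. The order of the groups was the same as for Apoe. Apoc1, in the same cluster, was no member: it was at 15, 13 and 16 in WT, at 273, 158 and 247 in KI and at 80, 62 and 44 in KI_Chd7del, so that the double mutant lay between the other groups.

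The macrophage markers C1qa and Mertk fell with Apoe against KI and did not pass the test against WT. C1qa, a complement gene of tissue macrophages, was at 1380, 2249 and 1693 in WT, at 4436, 2222 and 3536 in KI and at 1168, 1253 and 1164 in KI_Chd7del. The difference of C1qa from KI was -1.45 on the log2 scale (SE 0.24, adjusted p = 0.00192) and from WT -0.54 (adjusted p = 0.0929 in limma). Mertk, which encodes an engulfment receptor, stood at 212 to 238 in KI_Chd7del and at 217 to 283 in WT, against 882 to 1526 in KI. Of 28 monocyte and macrophage genes, 21 fell and 3 rose in KI_Chd7del against KI, while 2 fell and 12 rose against WT. Vcam1 was among those that rose against KI (log2 difference 0.55, SE 0.17, adjusted p = 0.0283 in limma). Csf1r fell against KI (log2 difference -1.13) but was among those that rose against WT (1.56, SE 0.13, adjusted p = 2.87e-05 in limma). Of all genes tested, 22.9% fell and 17.5% rose against KI, and 24.3% fell and 24% rose against WT. The list's sums were 431100 to 567641 in WT libraries, 449344 to 503204 in KI libraries and 334018 to 398594 in KI_Chd7del libraries. The part of macrophage numbers in the values of Apoe and Apoc2 was not tested.

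Pirb (chromosome 7, 3711409 to 3720391), an inhibitory receptor of myeloid and B cells, was at 4221, 6582 and 6492 in WT, at 5018, 5850 and 4234 in KI and at 2311, 1890 and 1895 in KI_Chd7del. WT and KI overlapped fully. Gm15448, 96 kb away, was at 66, 107 and 139 in WT, at 215, 162 and 131 in KI and at 39, 30 and 25 in KI_Chd7del. Pirb has near-identical relatives in its cluster, so its reads are uncertain in part. Of these relatives, Pira2 had values of 233, 209 and 227 in KI_Chd7del against 249 to 753 elsewhere (ratio 0.936), and Lilra6 had 1066, 1077 and 1123 against 425 to 810 in WT and 1261 to 1518 in KI.

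F10 (chromosome 8, 13037308 to 13056676), the gene of coagulation factor X, was at 1884, 1982 and 1976 in WT, at 5093, 3336 and 4368 in KI and at 829, 1004 and 850 in KI_Chd7del. Clec1b (chromosome 6, 129397297 to 129409335), the podoplanin receptor of platelets, was at 90, 90 and 95 in WT, at 304, 187 and 271 in KI and at 38, 50 and 53 in KI_Chd7del. For both genes the groups were fully separated, with KI highest and KI_Chd7del lowest. Clec1b was the only member on the megakaryocyte and platelet list. Of the other 19 genes tested on that list, 3 fell (15.8%) and 8 rose in KI_Chd7del against KI, and 2 fell (10.5%) and 10 rose against WT. Over all genes tested, 22.9% fell and 17.5% rose against KI, and 24.3% fell and 24% rose against WT. Pf4, platelet factor 4, for example, was at 124, 83 and 135 in KI and at 390, 660 and 869 in KI_Chd7del.

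Transport genes formed a further group. Slc6a20a (chromosome 9, 123634770 to 123678885), a proline transporter, was at 184, 172 and 167 in WT, at 270, 232 and 291 in KI and at 41, 65 and 38 in KI_Chd7del. Slc30a10 (chromosome 1, 185454848 to 185468762), a manganese exporter, was at 132, 120 and 128 in WT, at 279, 196 and 284 in KI and at 46, 46 and 51 in KI_Chd7del. Clcn2 (chromosome 16, 20702964 to 20717746), a chloride channel, was at 390, 373 and 397, then at 454, 462 and 426, then at 189, 173 and 189. In all 3 genes each KI library was above each WT library. Slc4a1, also a transport gene, had overlapping WT and KI values. Among the 11354 genes with a lowest WT or KI value of at least 50, 32% rose and 31.3% fell in KI against WT in limma. The share of all genes with such separation was not counted.

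Regulatory and signalling genes made up the next group. Bhlhe40 (chromosome 6, 108660629 to 108666925), a basic helix-loop-helix repressor, was at 1423, 1394 and 1542 in WT, at 3798, 2380 and 5084 in KI and at 685, 783 and 639 in KI_Chd7del. Its KI libraries were spread widely, and the double mutant libraries were at 48.3% of the WT mean and 18.7% of the KI mean. Dapk2 (chromosome 9, 66158223 to 66272242), a calmodulin-regulated death-associated kinase, was at 812, 782 and 722, then at 885, 671 and 787, then at 300, 320 and 273. Lrig1 (chromosome 6, 94604529 to 94700158), a brake on receptor tyrosine kinases, was at 176, 141 and 175, then at 221, 197 and 256, then at 72, 64 and 53. The WT and KI values of Dapk2 overlapped, while all KI libraries of Lrig1 lay above WT.

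Rab3il1, an exchange factor for Rab proteins, was at 474, 444 and 569 in KI_Chd7del against 1032 to 1177 in WT and 1215 to 2296 in KI. Paqr9, of the progestin and adipoQ receptor family, was at 1009, 895 and 854 against 1748 to 2049 and 2497 to 3180. Tspan15, a tetraspanin that partners the protease ADAM10, was at 77, 69 and 61 against 133 to 204 and 163 to 220. Paqr9 and Rab3il1 thus had KI above WT, and Tspan15 had overlapping WT and KI values. Ninl, a ninein-like centrosome protein, was at 107, 126 and 114 against 271 to 296 and 237 to 258. Gfap, an intermediate filament gene best known from astrocytes, was at 35, 39 and 32 against 100 to 136 and 76 to 132.

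The antisense member Gm26740 (chromosome 10, 22187013 to 22302835) had the smallest ratio outside the immunoglobulin genes, 0.202. It was at 160, 179 and 182 in WT, at 119, 224 and 144 in KI and at 13, 24 and 13 in KI_Chd7del. WT and KI overlapped, and the double mutant was near 10% of both (9.60% of the WT mean and 10.3% of the KI mean). The use of strand in the counting is not stated, so reads from any exon bases shared with a gene on the other strand could be misassigned. Overlap of exons was not examined. H60b (chromosome 10, 22158586 to 22288849) encodes a ligand of an NK cell receptor. Its span overlaps that of Gm26740 by 102 kb on the opposite strand. H60b ran the other way, with 44, 43 and 61 in KI_Chd7del against 4 to 15 in WT and KI. It was chosen after its values were seen and would not have passed the filter on low values without the KI_Chd7del libraries. Its direction is thus set by that choice, and no test is given. Whether the genetic background on chromosome 10 differed between the groups was not tested.

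**Figure D3:**
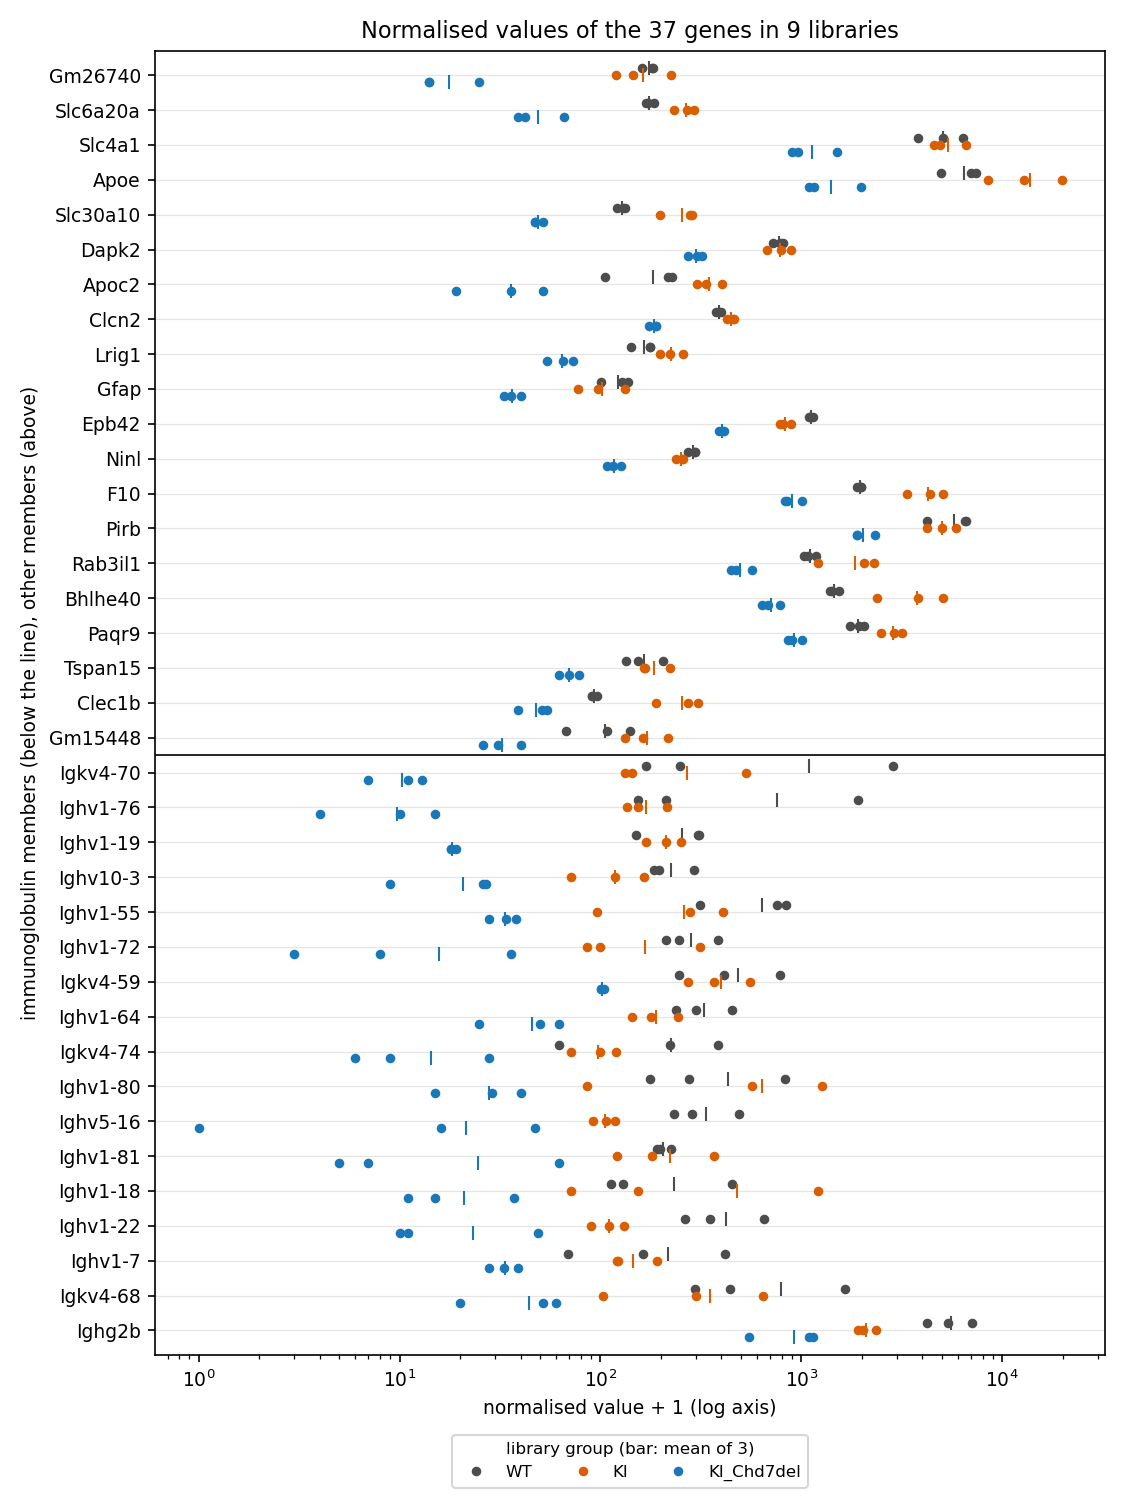
Normalised value plus 1 of each of the 37 members on a log axis, with 1 point per library, a bar at the mean of 3, and immunoglobulin genes below the line. KI_Chd7del points lie left of the rest by the rule; WT and KI points are tight for genes such as Epb42 (1086 to 1148 in WT) and scattered for V genes such as Igkv4-70 (168 to 2852 in WT).

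The members differed in how much they varied among libraries of a group. The coefficient of variation in WT had a median of 48.7% over the 17 immunoglobulin members and of 6.79% over the 20 others. In KI the medians were 36.5% and 18.5%, and in KI_Chd7del 49.2% and 11.7%. Within KI_Chd7del, library 3 was highest for 12 of the 17 immunoglobulin members, while among the other 20 library 1 was highest or tied for 10, library 2 for 7 and library 3 for 4. Library 1 of KI was highest for 12 of the 20 other members and for 10 of the 17 immunoglobulin members. Many V gene values in KI_Chd7del were under 50, where counting error is large.

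**Figure D4:**
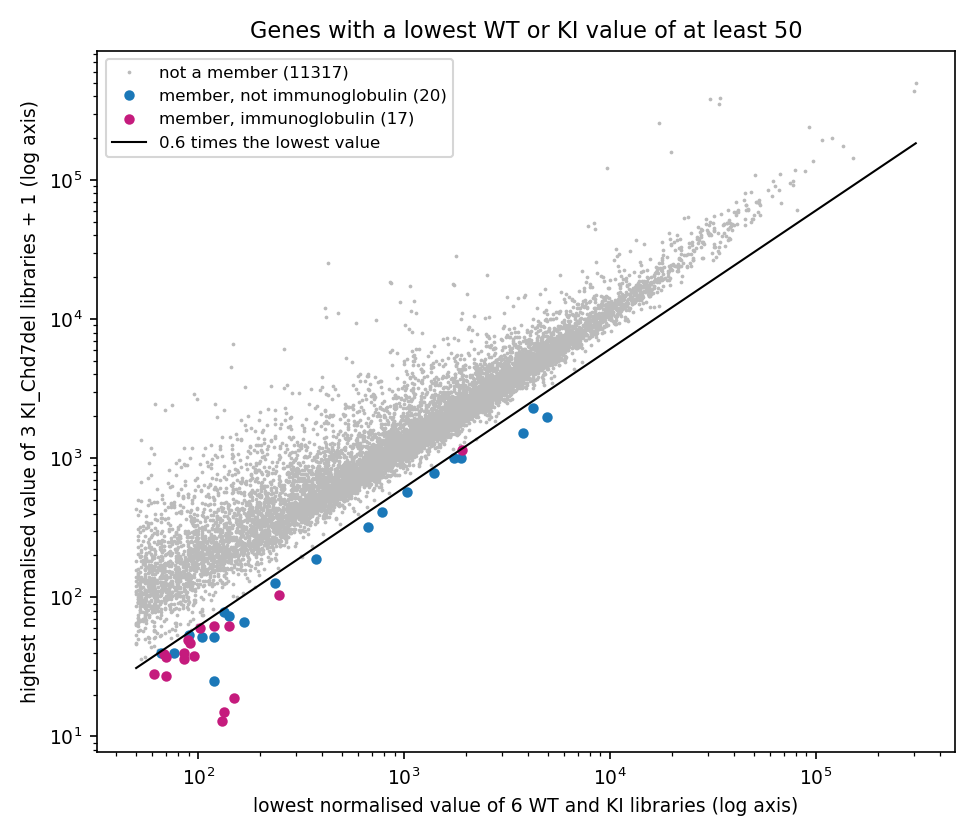
Highest KI_Chd7del value plus 1 against the lowest of the 6 WT and KI values, both on log axes, for the 11354 genes with a lowest value of at least 50. The line is 0.6 times the lowest value; the 37 members lie below it, and Ighg2b, with a lowest value of 1918, lies far to the right of the 16 V members.

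Just inside the limit of 0.6 stood Clec1b (ratio 0.589), Gm15448 (0.591) and Ighg2b (0.592). Just outside stood Zfhx3 (0.613; 195 in the highest KI_Chd7del library against 318 in the lowest other one), Rhd (0.615; 1369 against 2225) and Ighg1 (0.618; 196 against 317). With a ratio of 0.5, 17 of the 37 genes remained, and with 0.7 the list grew to 70. When each library was scaled to the same total before the rule, 25 of the 37 remained, 15 of them immunoglobulin genes. Upper-quartile factors kept 31 and TMM factors 36. The 12 genes lost with equal totals were Clcn2, Lrig1, F10, Pirb, Rab3il1, Ighv1-7, Bhlhe40, Paqr9, Tspan15, Clec1b, Gm15448 and Ighg2b.

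KI against WT asks whether the members already differed with Mx1-Cre and the fusion allele and no floxed Chd7. The rule did not compare these 2 groups, but it used the lowest of their 6 values, which makes a gene with a large difference between them harder to include. The counts below are therefore descriptions of the chosen genes. All 37 members passed the filter on low values and were tested in a limma fit over all 15997 genes. In KI, 9 members rose (24.3%) and 4 fell (10.8%), while 31.8% of all genes tested rose and 27.2% fell. Among the 11354 genes with a lowest WT or KI value of at least 50, 32% rose and 31.3% fell. The median log2 difference was -0.15 over the members and 0.02 over all genes tested. Without KI library 1, 5 members rose, and without WT library 3, 2 fell.

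The 9 that rose were all outside the immunoglobulin genes, where 9 of 20 rose and 1 fell. Clec1b rose most, by 1.43 on the log2 scale (SE 0.21, adjusted p = 0.000309), followed by Bhlhe40 at 1.30 (SE 0.23, adjusted p = 0.000880) and F10 at 1.11 (SE 0.14, adjusted p = 0.000118). Apoe rose by 1.02 (SE 0.32, adjusted p = 0.0210), a call lost without WT library 1 (adjusted p = 0.0771) or KI library 1 (0.0719). Slc30a10 rose by 0.97 (SE 0.17, adjusted p = 0.000890) and Paqr9 by 0.58 (SE 0.10, adjusted p = 0.00104). Each KI library lay above each WT library for all of these genes. Rab3il1 (0.71, adjusted p = 0.0165), Slc6a20a (0.59, adjusted p = 0.0320) and Lrig1 (0.45, adjusted p = 0.0461) also passed, and each lost its call in 3 or more alternatives. In these 9 genes KI, with Mx1-Cre and the fusion allele, stood above WT, and the double mutant stood below WT by the rule.

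The 4 that fell were Ighv1-22 (log2 difference -1.84, SE 0.58, adjusted p = 0.0217), Ighv1-55 (-1.39, SE 0.53, adjusted p = 0.0457), Ighg2b (-1.38, SE 0.28, adjusted p = 0.00212), and Epb42 (-0.43, SE 0.07, adjusted p = 0.000483). Ighv1-55 lost its call in 11 of 18 alternatives and Ighv1-22 in 2. For Ighv1-22, Ighg2b and Epb42 the groups ran downwards from WT through KI to KI_Chd7del in all libraries, the last step by the rule. Ighv10-3, Ighv5-16 and Ninl had the same order but were not called. The 14 immunoglobulin members outside the 4, Ighv10-3 and Ighv5-16 among them, did not pass, with SEs of up to 1.13 on the log2 scale. Nor did 10 further members, among them Slc4a1 (0.09, SE 0.24, adjusted p = 0.773), Dapk2 (0.01, SE 0.11, adjusted p = 0.949), Pirb (-0.18, SE 0.18, adjusted p = 0.420), Apoc2 (1.00, SE 0.39, adjusted p = 0.0530) and Clcn2 (0.21, SE 0.09, adjusted p = 0.0627). A p above the threshold does not show equal levels in WT and KI.

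**Figure D5:**
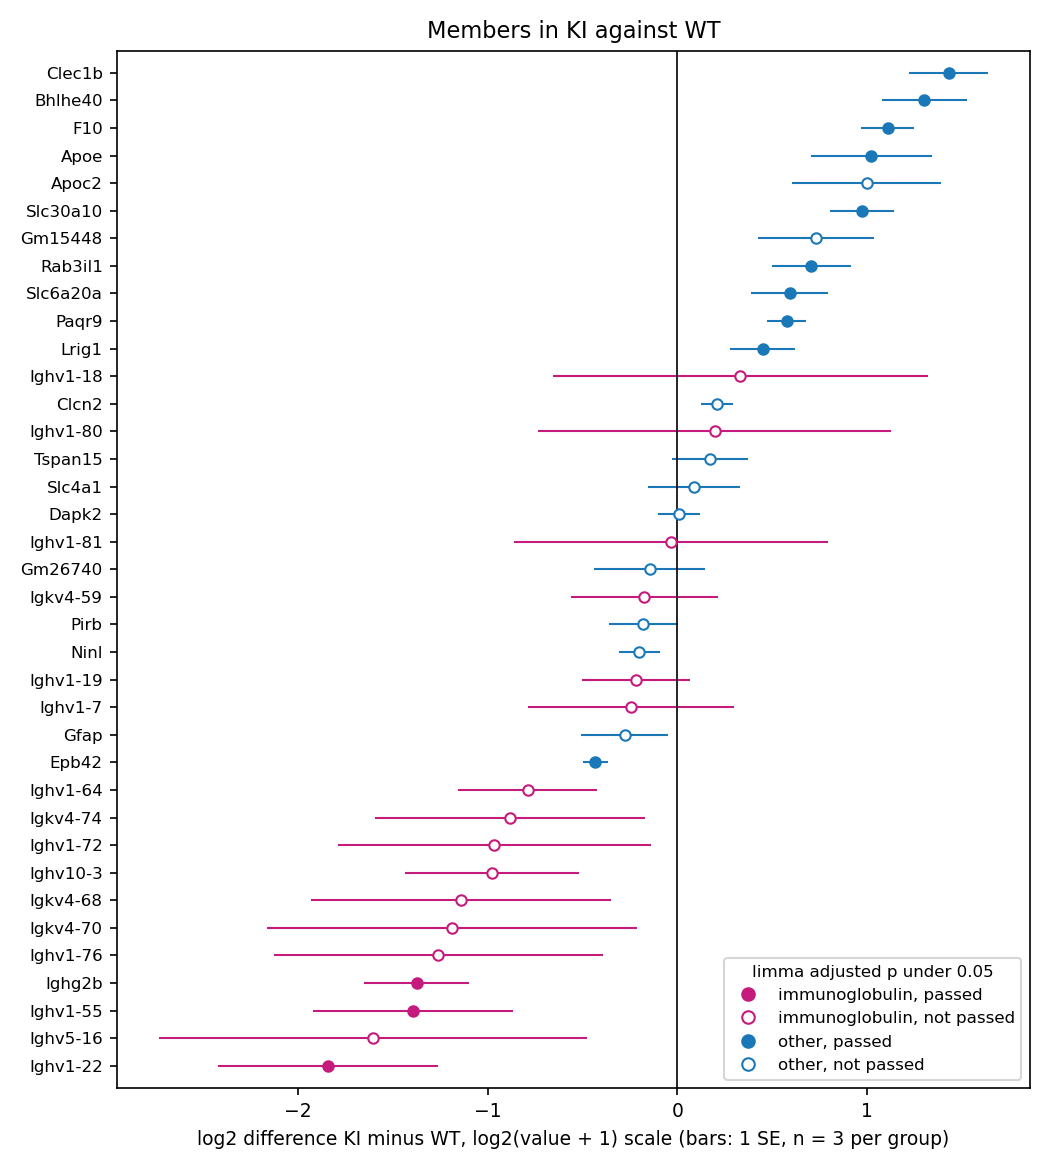
Log2 difference of KI minus WT on the log2(value + 1) scale with 1 SE for each member (n = 3 libraries per group), filled where the limma adjusted p was under 0.05. The 9 filled points above 0 are outside the immunoglobulin genes, and immunoglobulin members have the widest bars.

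In length, the 19 protein-coding members had a median of 4891 annotated exon bases, against 4602 over 10542 protein-coding genes with a lowest WT or KI value of at least 50. Their median span on the genome was 14.8 kb against 24.4 kb. The 16 V members were short, with 351 to 415 exon bases.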

How the data were processed

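The deposited file gave a value for each gene and library, with 9 libraries of c-KIT+ mouse marrow, 3 per group. Its values have the unit score: read numbers that the authors divided by 1 size factor per library and rounded before deposit, as read from gaps among the low values. The tools, per the submitters' processing notes, were DESeq2, RSEM, STAR 2.4 and CASAVA 1.8.2 with the GRCm38 build, in no given order or role. Since these are not raw counts, the planned count test was not run. Libraries were compared with limma 3.58.1 (R 4.3.3, mean-variance trend) on log2(value + 1) for genes at 10 or more in at least 3 libraries, over all 9 libraries with no block. P-values are 2-sided, adjusted by Benjamini-Hochberg over all 15997 genes, with a threshold of 0.05. Fold changes on this scale understate changes of low genes. The fit was also run on simulated data in which few genes differed, unlike the data here, and no result rests on that run.

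Symbols and positions came from GENCODE M21 (42548 of 43629 identifiers matched), promoter windows from RefSeq, and V sequences from GRCm38. The members and the 38 gene lists were chosen with earlier results of these data known. The 38 lists were searched for members, and only the erythroid and the megakaryocyte and platelet lists held any. Named in full by rule were the 25 members with the smallest ratio, the 5 with the largest change per direction in KI against WT, those on a list, those next to the limit and the 5 with the highest mean. Gm26740, Rab3il1, Paqr9, Tspan15, Ighv1-7, Igkv4-68 and the genes described beside members, such as H60b, were chosen after their values were seen. Same-numbered libraries did not deviate together (correlations -0.15 to 0.11 over 9 pairs), so numbers were not taken as pairs. Alternatives were other scalings, pseudocounts, filters, group subsets, a replicate block, other limits of the rule and each library left out. Software was Python 3.11.15 with pandas 2.3.3, numpy 2.4.6 and matplotlib 3.10.9, and the R package data.table, version 1.17.8.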

Additional observations from a re-analysis of the deposited data

How the results depend on the processing

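Of 234 alternative values for the 13 members called in KI against WT, 200 kept their call and 34 lost it, and none changed direction. With libraries scaled to equal totals, the median of all genes in KI against WT moved from 0.02 to 0.25 and in KI_Chd7del against WT from 0.02 to 0.26, 7013 genes were then higher and 1880 lower in KI_Chd7del against WT, and 2488 were lower in KI against WT. Calls in the higher direction made up 74.3% in place of 53.9% in KI against WT, and 78.9% in place of 49.7% in KI_Chd7del against WT. With upper-quartile factors that share was 58.7% in the latter and 59.1% in place of 43.4% in KI_Chd7del against KI. The number of members was 17 at a ratio of 0.5, 70 at 0.7 and 13 at a lowest value of 200. Leaving out 1 library at a time gave 38 to 59 members (59 without KI_Chd7del library 1), and by construction all 37 stayed among them. Immunoglobulin genes then numbered 17 to 28 (28 without KI library 3, 26 without KI_Chd7del library 2), members higher in KI 5 to 10 and members lower in KI 2 to 5. Kappa V genes lower in KI_Chd7del against KI numbered 15, and 6 to 17 with a library left out (6 without KI library 1). A replicate block called 7 members higher and 4 lower, and ended the calls of Ighv1-55 (adjusted p = 0.0669), Lrig1 (0.0615) and Slc6a20a (0.0559). Fits with DESeq2 and edgeR need raw counts and were not run. Values under 50 rest on few reads, which limits V genes most.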

Other observations

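A few V segments had the opposite pattern to the members and were chosen after their values were seen, by a lowest KI_Chd7del value of at least 10 that lay above each WT and KI library. The heavy chain pseudogene Ighv3-2 was at 88, 888 and 142 in KI_Chd7del and at 0 or 1 in each WT and KI library. Ighv1-29, a pseudogene of the Ighv1 family, was at 31, 23 and 28 in KI_Chd7del and at 0 in each of the other 6 libraries. Ighv1-14 was at 34, 51 and 13 against 0 or 1, and Ighv4-2 at 12, 67 and 42 against 0 to 3. Of the V genes proper, Ighv8-11 was at 60, 20 and 28 against 0 to 2. In the kappa locus, Igkv11-125 was at 116, 177 and 164 in KI_Chd7del and at 5 to 27 in the other libraries. Of 77 V pseudogenes, 5 passed the filter on low values, and 4 of these 5 passed it through KI_Chd7del libraries alone, so their direction is set by the filter and no count of them is evidence. Whether the genetic background at these loci differed between the groups was not tested.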
